A study of Homo sapiens with 6 samples.

Results

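Glypicans and syndecans are the 2 families of cell-surface proteoglycans that carry heparan sulfate (HS). They were selected by gene symbol from the deposited expression table as GPC1 to GPC6 and SDC1 to SDC4, which gave 10 of 58174 genes. The data are polyA RNA-seq libraries of KNS42 cells, an established line derived from a pediatric glioblastoma (GBM) that was grown adherently in serum-containing medium. All cells were transfected with siRNA and harvested 72 h later. The siMSI1 group (n = 3) received a pool of siRNAs against MSI1, an RNA-binding protein of neural stem and progenitor cells, and the siC group (n = 3) received a control siRNA, so both groups share the cell line and the transfection. The groups are 1 cell line with 1 siRNA pool, and no source states that the libraries of a group came from separate cultures, so p-values measure the spread between these libraries, which may be technical.

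Glypicans are tethered to the outer face of the membrane by a lipid anchor, whereas syndecans span the membrane and end in a short cytoplasmic tail that binds scaffold proteins. Their HS chains hold growth factors such as FGFs, Wnts and hedgehog proteins near the receptors, and the chains are built and sulfated in the Golgi by a shared set of enzymes. In brain, GPC4 and GPC6 are known as astrocyte-released factors that promote synapses, GPC2 and SDC3 as proteins of developing neurons, and GPC1 as a glypican of gliomas.

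Libraries held 13087025 to 18024080 reads on genes. MSI1 measured 63.7, 61.9 and 66.9 FPKM (reads scaled to gene length and library size) across siC and 12.1, 12.3 and 11.2 across siMSI1, which is 18.5% of the siC mean. Of 10 glioma and astroglial markers, 8 were above a mean of 0.5 FPKM, with SOX2, VIM and NES at 301, 1040 and 69.2 FPKM in siC, while S100B and OLIG2 were listed at 0 in all 6 libraries. Of 11 markers of immune, endothelial, epithelial, oligodendrocyte, neuronal and stromal cells, 10 were under 0.5 FPKM. Their summed level was 4.18 to 5.09 FPKM in siC and 4.50 to 4.59 FPKM in siMSI1, most of it from the neuronal gene SYT1. Of the 8 tested glioma and astroglial markers, 4 passed the threshold described below (50.0%, against 11.0% of all tested genes). GFAP (log2 fold change 1.46) and AQP4 (0.80) rose, and FABP7 (−1.12) and SOX9 (−0.61) fell. The rest did not pass, though PTPRZ1 (0.55) was higher and VIM (−0.26), SOX2 (−0.23) and NES (−0.16) lower in every siMSI1 library. The part of these markers in the results was not tested. Replicate 3 of siMSI1 stood somewhat apart: the chi-square of its reads against the other siMSI1 libraries, divided by its degrees of freedom, was 8.95 and 10.2, against 3.87 between those libraries and 3.34 to 7.51 within siC (1 is counting noise alone).

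Of the 10 members, GPC1, GPC4 and SDC2 had the highest transcript levels in KNS42 cells, while their proteins and HS chains were not measured. Upon MSI1 knockdown GPC1 and GPC2 rose, and GPC4 and SDC2 fell. SDC1 had the greatest fold difference of the tested members, at 52.1% of its siC level, but did not pass the threshold. GPC6 and SDC4 overlapped between the groups, GPC3 and SDC3 were below the expression filter, and GPC5 had 1 read in 1 library. Of the 10 members, 7 reached a mean of 0.5 FPKM and were tested (limma on log2(FPKM + 0.1), Benjamini-Hochberg adjustment over all 15069 tested genes, adjusted p of at most 0.01). Of these, 4 passed, 2 in each direction. Over all tested genes 11.0% passed, 5.15% as higher and 5.83% as lower. The groups did not overlap for 5 of the 7 tested members, against 42.8% of all tested genes. The count of members past the threshold was 2 with no filter on low values or with plain variance moderation. Over all genes 792 and 847 passed in these settings, against 1655 in the main setting. Without siMSI1 replicate 3 the count of members was 4, with SDC1 gained and GPC2 lost, and 1603 of all genes passed. It was 2 without siC replicate 2 or siMSI1 replicate 2, where 842 and 885 of all genes passed. It was 1 without siC replicate 1, siC replicate 3 or siMSI1 replicate 1, where 517, 800 and 814 of all genes passed. As the libraries are bulk RNA, fewer cells with a transcript and less transcript per cell cannot be told apart.

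**Figure D1:**
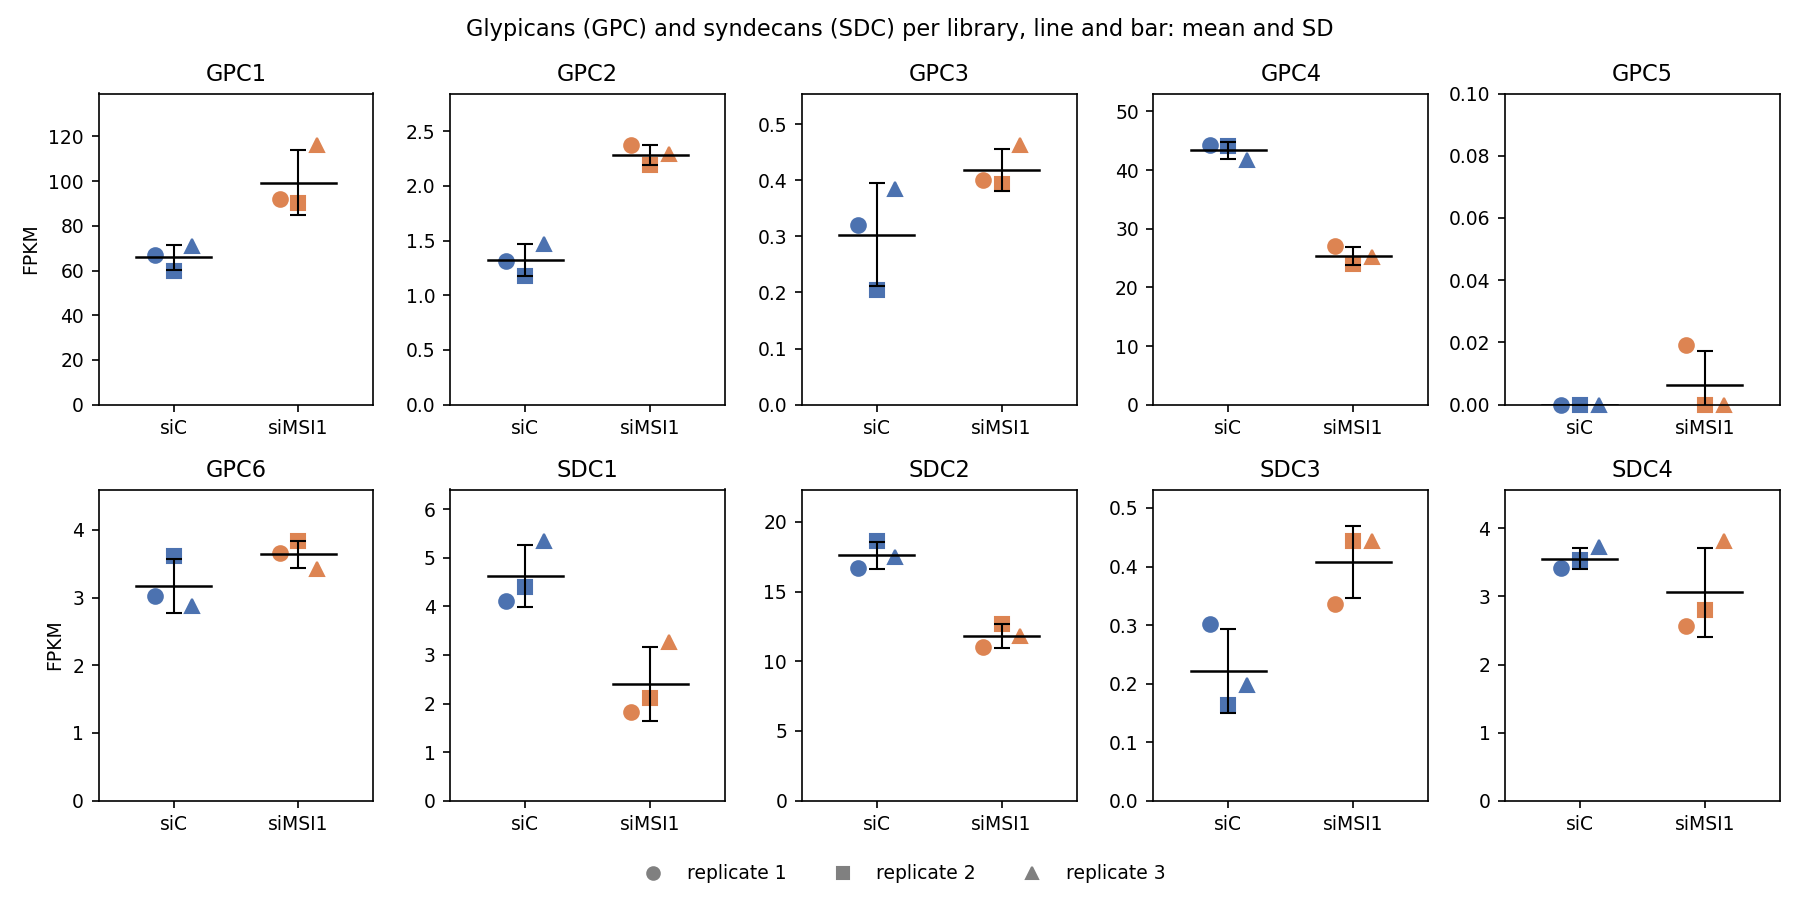
FPKM of each of the 10 members (linear vertical axes starting at 0) in the 3 siC and the 3 siMSI1 libraries. Points are libraries, with the symbol giving the replicate number, and the line and bar are the mean and SD. GPC1 and GPC2 sit higher in every siMSI1 library, and GPC4, SDC1 and SDC2 sit lower, while GPC6 and SDC4 overlap. GPC3 and SDC3, both below the expression filter, also sit higher in every siMSI1 library, GPC3 by a narrow margin.

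GPC1 is a glypican that acts as an FGF co-receptor. It lies on chromosome 2 (GRCh38, 240435663 to 240468076, plus strand). It measured 66.8, 60.0 and 71.1 FPKM across siC and 91.9, 90.0 and 116 across siMSI1, from 6524 to 10875 reads per library. Every siMSI1 library was above every siC library, and siMSI1 replicate 3 was the highest. Group means were 66.0 ± 5.6 and 99.4 ± 14.6 FPKM (SD, n = 3 each). On the log2 scale GPC1 rose by 0.58 ± 0.113 (SE, limma adjusted p = 0.0090). With a mean over the 6 libraries above that of 97.5% of protein-coding genes, GPC1 was among the most abundant transcripts. The call was close to the threshold: its adjusted p was 2.2e-13 to 0.034 over 17 alternative settings, and it passed in only 1 of the 6 fits that left out a library. That fit omitted siMSI1 replicate 3 and gave a log2 difference of 0.47 (limma adjusted p = 0.0076). The microRNA gene MIR149 lies within GPC1 on the same strand and had at most 5 reads in a library, and PP14571 on the opposite strand had at most 6, both far under the reads of GPC1.

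GPC2, the glypican of developing neurons, lies on chromosome 7 from 100169606 to 100177381 on the minus strand. It measured 1.31, 1.18 and 1.47 FPKM across siC and 2.37, 2.19 and 2.29 across siMSI1. The siMSI1 libraries were close to each other and all above the siC libraries. The mean was 1.32 ± 0.144 FPKM in siC and 2.29 ± 0.0916 FPKM in siMSI1 (SD, n = 3 each), so GPC2 rose by 0.75 ± 0.132 on the log2 scale (SE, limma adjusted p = 0.0061). It rested on 75 to 82 reads per siC library and 110 to 134 reads per siMSI1 library. The adjusted p was 5.3e-05 to 0.028 over the 17 alternatives, and the call was lost in each of the 6 fits that left out a library (0.0118 to 0.0285).

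GPC4, one of the astrocyte-released synapse-promoting glypicans, lies on chromosome X from 133300103 to 133415489 on the minus strand. It measured 44.2, 44.1 and 41.7 FPKM across siC and 27.0, 24.0 and 25.1 across siMSI1. The groups were well apart and both were tight. The mean dropped from 43.3 ± 1.42 to 25.4 ± 1.5 FPKM (SD, n = 3 each), or 58.6% of the siC level, with 1559 to 3955 reads per library. GPC4 differed by −0.77 ± 0.0681 on the log2 scale (SE, limma adjusted p = 0.00048). This was the one member whose call held in all 17 alternatives, with log2 fold changes from −0.82 to −0.73 and adjusted p-values up to 0.0046.

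GPC6, the paralog with a like role in astrocytes, was not lower. It lies on chromosome 13 from 93226807 to 94408020. It measured 3.03, 3.62 and 2.87 FPKM across siC and 3.66, 3.83 and 3.42 across siMSI1, with 267 to 423 reads per library. The groups overlapped, and siC replicate 2 reached the siMSI1 range. The log2 fold change was 0.20, with a 95% interval of −0.07 to 0.46 (adjusted p = 0.25 from limma), which does not reach the interval of GPC4, −0.93 to −0.61. The antisense genes GPC6.AS1 and AL354811.1 overlap GPC6, with at most 19 and 14 reads in a library.

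GPC3, a glypican known to restrain growth, is the neighbour of GPC4 on chromosome X, from 133535745 to 133987100. It measured 0.320, 0.204 and 0.385 FPKM across siC and 0.400, 0.394 and 0.462 across siMSI1, which is 10 to 18 reads per library. The FPKM ranges of the groups lay side by side without overlap. The read counts did overlap, with 10 to 15 in siC and 14 to 18 in siMSI1. GPC3 was under the filter of a mean of 0.5 FPKM. The pseudogene AL009174.1 lies within GPC3 on the opposite strand and had up to 14 reads in a library, a number close to that of GPC3. The overlap is of whole gene spans, and shared exons were not examined. Whether counting used the strand is not stated in the sources used here, so whether these genes share reads is not known. When tested without that filter the log2 fold change was 0.39 (adjusted p = 0.50 from limma). GPC5, next to GPC6 on chromosome 13 from 91398621 to 92873682, had no read in 5 libraries and 1 read in siMSI1 replicate 1. A count of 0 allows up to 3 reads, or 0.0468 to 0.0643 FPKM for this gene. Thus in each of these genomic pairs of glypicans 1 gene was expressed well above the other in KNS42.

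SDC2, the syndecan of mesenchymal cells and dendritic spines, was the most abundant syndecan. It lies on chromosome 8 from 96493813 to 96611790 on the plus strand. It measured 16.7, 18.6 and 17.5 FPKM across siC and 11.0, 12.7 and 11.8 across siMSI1. All siMSI1 libraries were below all siC libraries, with a spread of less than 2 FPKM in each group. The mean dropped from 17.6 ± 0.946 to 11.8 ± 0.829 FPKM (SD, n = 3 each), with 737 to 1528 reads per library. SDC2 differed by −0.57 ± 0.0782 on the log2 scale (SE, limma adjusted p = 0.0022). Over the 17 alternatives the adjusted p was 9.3e-11 to 0.011 and passed in 13 of them. It missed the threshold by little without siC replicate 1 (0.0106), siC replicate 3 (0.0102) or siMSI1 replicate 1 (0.0101).

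SDC1, the syndecan of epithelial and plasma cells, lies on chromosome 2 from 20200797 to 20225433 on the minus strand. It measured 4.12, 4.4 and 5.34 FPKM across siC and 1.83, 2.12 and 3.27 across siMSI1, from 222 to 286 and from 97 to 169 reads. All siMSI1 libraries were below all siC libraries, but siMSI1 replicate 3 was well above the other siMSI1 libraries. The mean was 4.62 ± 0.637 FPKM in siC and 2.41 ± 0.763 FPKM in siMSI1 (SD, n = 3 each). The log2 difference of −0.94 ± 0.209 (SE, 95% interval −1.43 to −0.46) did not pass (limma adjusted p = 0.015). Without siMSI1 replicate 3 it was −1.18 and passed (adjusted p = 0.0021). It also passed with limma's voom on the reads recovered from the FPKM (−0.97, adjusted p = 0.00057), a test that called 18.9% of all tested genes. Its direction was the same in all 17 alternatives, with adjusted p-values from 1.7e-08 to 0.050.

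SDC4, a syndecan of focal adhesions that works with protein kinase C alpha, lies on chromosome 20 from 45325288 to 45348424. It measured 3.42, 3.53 and 3.72 FPKM across siC and 2.57, 2.80 and 3.81 across siMSI1. The groups overlapped because siMSI1 replicate 3 was the highest of all 6 libraries, while the other siMSI1 libraries were below siC. The log2 fold change was −0.23 (95% interval −0.58 to 0.12, adjusted p = 0.30 from limma), and −0.39 without siMSI1 replicate 3 (adjusted p = 0.036). SDC3, the neuronal syndecan on chromosome 1 from 30869466 to 30908758, measured 0.302, 0.164 and 0.197 FPKM across siC and 0.336, 0.443 and 0.443 across siMSI1. This is 20 to 32 reads per siC library and 35 to 45 reads per siMSI1 library, without overlap in FPKM. SDC3 was under the filter, and when tested without it the log2 fold change was 0.68 (adjusted p = 0.23 from limma).

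In siC the order of mean FPKM was GPC1, GPC4, SDC2, SDC1, SDC4, GPC6, GPC2, GPC3, SDC3 and GPC5. The ranges of SDC4 and GPC6 overlapped, as did those of GPC3 and SDC3, so these neighbours did not differ beyond their spread. In siMSI1 the leading 3 genes kept their order, and were followed by GPC6, SDC4, SDC1, GPC2, GPC3, SDC3 and GPC5. There the ranges of GPC6 and SDC4 overlapped, as did those of SDC4 and SDC1, of SDC1 and GPC2, and of GPC3 and SDC3.

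The summed level of the members overlapped between the groups. The sum of each family and the shares of GPC1, GPC2, GPC4, SDC3 and SDC4 within their family did not. The FPKM summed over the 10 genes was 140, 136 and 144 in siC and 141, 138 and 167 in siMSI1, and these ranges overlapped. Glypicans summed to 116, 109 and 117 FPKM in siC and to 125, 120 and 148 FPKM in siMSI1. GPC1 carried this difference, since the glypicans without GPC1 summed to 48.1 ± 1.48 FPKM in siC and to 31.7 ± 1.54 FPKM in siMSI1 (SD, n = 3 each). GPC1 made up 57.8%, 55% and 60.5% of the glypican FPKM in siC and 73.3%, 74.8% and 78.8% in siMSI1. The share of GPC4 was 38.0% ± 2.45 in siC and 19.5% ± 2.28 in siMSI1 (SD, n = 3 each). The ratio of GPC1 to GPC4 was therefore 1.52 ± 0.170 in siC and 3.93 ± 0.624 in siMSI1. Syndecans summed to 24.6, 26.7 and 26.7 FPKM in siC and to 15.8, 18.0 and 19.3 FPKM in siMSI1. SDC2 kept a similar share of that sum, 67.7% ± 2.17 in siC and 67.1% ± 5.26 in siMSI1. The share of SDC4 was 13.7% ± 0.404 in siC and 17.2% ± 2.23 in siMSI1. That of SDC3, a gene below the filter, was 0.86% ± 0.326 and 2.29% ± 0.16. The ratio of glypican to syndecan FPKM was 4.39 ± 0.310 in siC and 7.42 ± 0.668 in siMSI1 (SD, n = 3 each). These sums are described without a test.

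**Figure D2:**
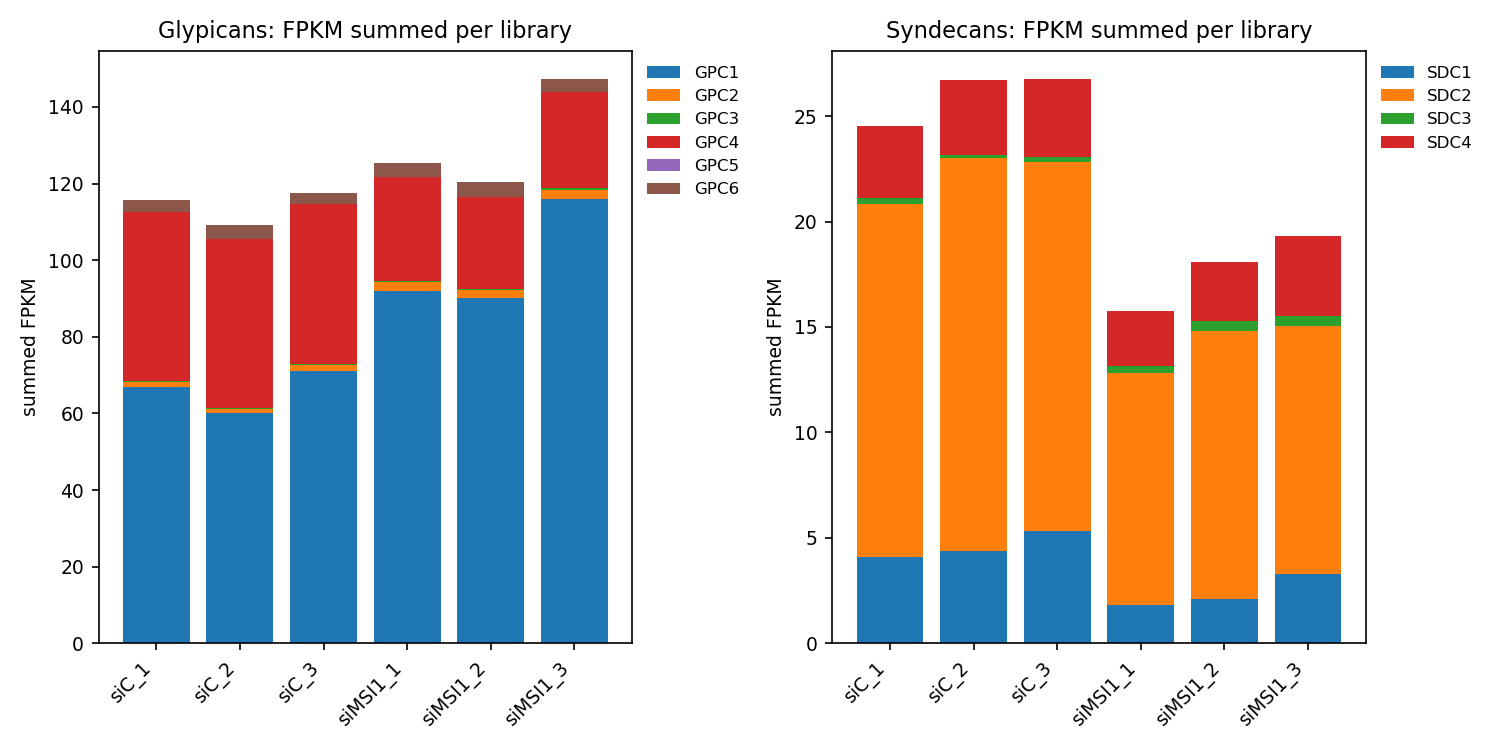
FPKM summed over the glypicans (left) and over the syndecans (right) in each of the 6 libraries, with the genes stacked and both linear axes starting at 0. GPC1 widens and GPC4 narrows in the siMSI1 libraries, and the syndecan bars are 15.8 to 19.3 FPKM there against 24.6 to 26.7 FPKM in siC.

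Genes of HS synthesis, sulfation and editing, syndecan tail partners, glypican receptors and other HS proteoglycans were counted from 6 lists with 62 genes in all. Of these genes 43 were tested and 6 passed, 3 higher and 3 lower. This is 14.0%, near the 11.0% of all tested genes. The count was 1 without siC replicate 1, 7 without siMSI1 replicate 3 and 3 without any other single library. Over all genes the counts in these fits were 517, 1603 and 800 to 885. An unadjusted p under 0.05 was found for 17 of the 43 genes (39.5%), against 38.3% of all tested genes. The median log2 fold change of the 43 genes was 0.05, against 0.00 over all tested genes. In chain synthesis, 2 of 10 tested genes passed, both lower. XYLT1, which adds the xylose that starts the chain, measured 2.80, 2.98 and 2.86 FPKM across siC and 1.47, 1.43 and 1.59 across siMSI1 (log2 difference −0.90 ± 0.111, SE, limma adjusted p = 0.0014). FAM20B, the kinase that phosphorylates this xylose, dropped from 20.3 ± 0.967 to 14.8 ± 0.566 FPKM with 3 libraries per group (SD), a log2 difference of −0.45 (limma adjusted p = 0.0033). XYLT2, the other xylosyltransferase of the list, had a higher level than XYLT1, at 5.47 FPKM in siC and 4.34 FPKM in siMSI1. Its log2 difference of −0.33 did not pass (limma adjusted p = 0.039). The HS polymerase subunits had log2 differences of −0.14 for EXT1 and −0.09 for EXT2 (limma adjusted p = 0.43 and 0.44), and EXTL3, which starts the HS polymer, one of −0.44 (0.012). B3GAT3, which completes the linker and was the most abundant gene of the list, differed by 0.18 (0.12).

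Of the 10 tested sulfation and epimerization genes none passed with limma on FPKM, and 1, HS6ST1, passed with voom. An unadjusted p under 0.05 was found for 4 of the 10 (HS6ST1, NDST1, HS3ST3A1 and HS3ST5), a share near the 38.3% of all tested genes. HS6ST1, the most abundant sulfotransferase, was at 61.6 ± 3.10 FPKM in siC and 80.5 ± 6.70 FPKM in siMSI1 (SD, n = 3 each), a log2 difference of 0.38 (limma adjusted p = 0.012, 3.5e-08 to 0.055 over the alternatives). NDST1, which exchanges acetyl groups for sulfates, differed by 0.23 (limma adjusted p = 0.051). Among the genes that edit or release HS proteoglycans, 1 of 6 tested passed (16.7%, against 11.0% of all tested genes). This was SULF2, an extracellular enzyme that removes sulfate groups from HS. It measured 22.9, 21.4 and 22.3 FPKM across siC and 42.6, 39.8 and 44.2 across siMSI1. The log2 difference of 0.92 ± 0.0670 (SE, limma adjusted p = 0.00027) was past the threshold in all 17 alternatives. Its paralog SULF1 was at 2.40 ± 0.182 and 2.56 ± 0.0540 FPKM (SD, n = 3 each), which differed by 0.09 on the log2 scale (limma adjusted p = 0.56).

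Of the 7 tested genes whose products act at the syndecan tail, 1 passed (14.3%, against 11.0% of all tested genes), which was GIPC1. It encodes a scaffold that binds the tail of SDC4, and it dropped from 55.2 ± 5.25 to 34.7 ± 4.48 FPKM with 3 libraries per group (SD), a log2 difference of −0.67 (limma adjusted p = 0.0044). EZR, the most abundant gene of that list, differed by −0.09 (limma adjusted p = 0.42). Of the 4 tested genes for receptors of glypicans, 2 passed, both higher, against 11.0% of all tested genes and 5.15% as higher. PTPRS, a receptor phosphatase that binds HS chains, was at 42.3 ± 1.39 FPKM in siC and 57.8 ± 2.26 FPKM in siMSI1 (log2 difference 0.45, limma adjusted p = 0.0024). GPR158, a synaptic partner of GPC4, was at 3.36 ± 0.161 and 5.30 ± 0.642 FPKM (0.63, 0.0058). Among the 17 alternatives SULF2 passed in 17, XYLT1 in 16, PTPRS in 13, FAM20B and GIPC1 in 11 each and GPR158 in 10. None of the 6 tested other HS proteoglycans passed with limma on FPKM or with voom, and 1 of the 6, NRP1, had an unadjusted p under 0.05, against 38.3% of all tested genes. SPOCK2, their most abundant member, was at 65.6 ± 4.15 and 66.9 ± 6.23 FPKM (SD, n = 3 each).

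**Figure D3:**
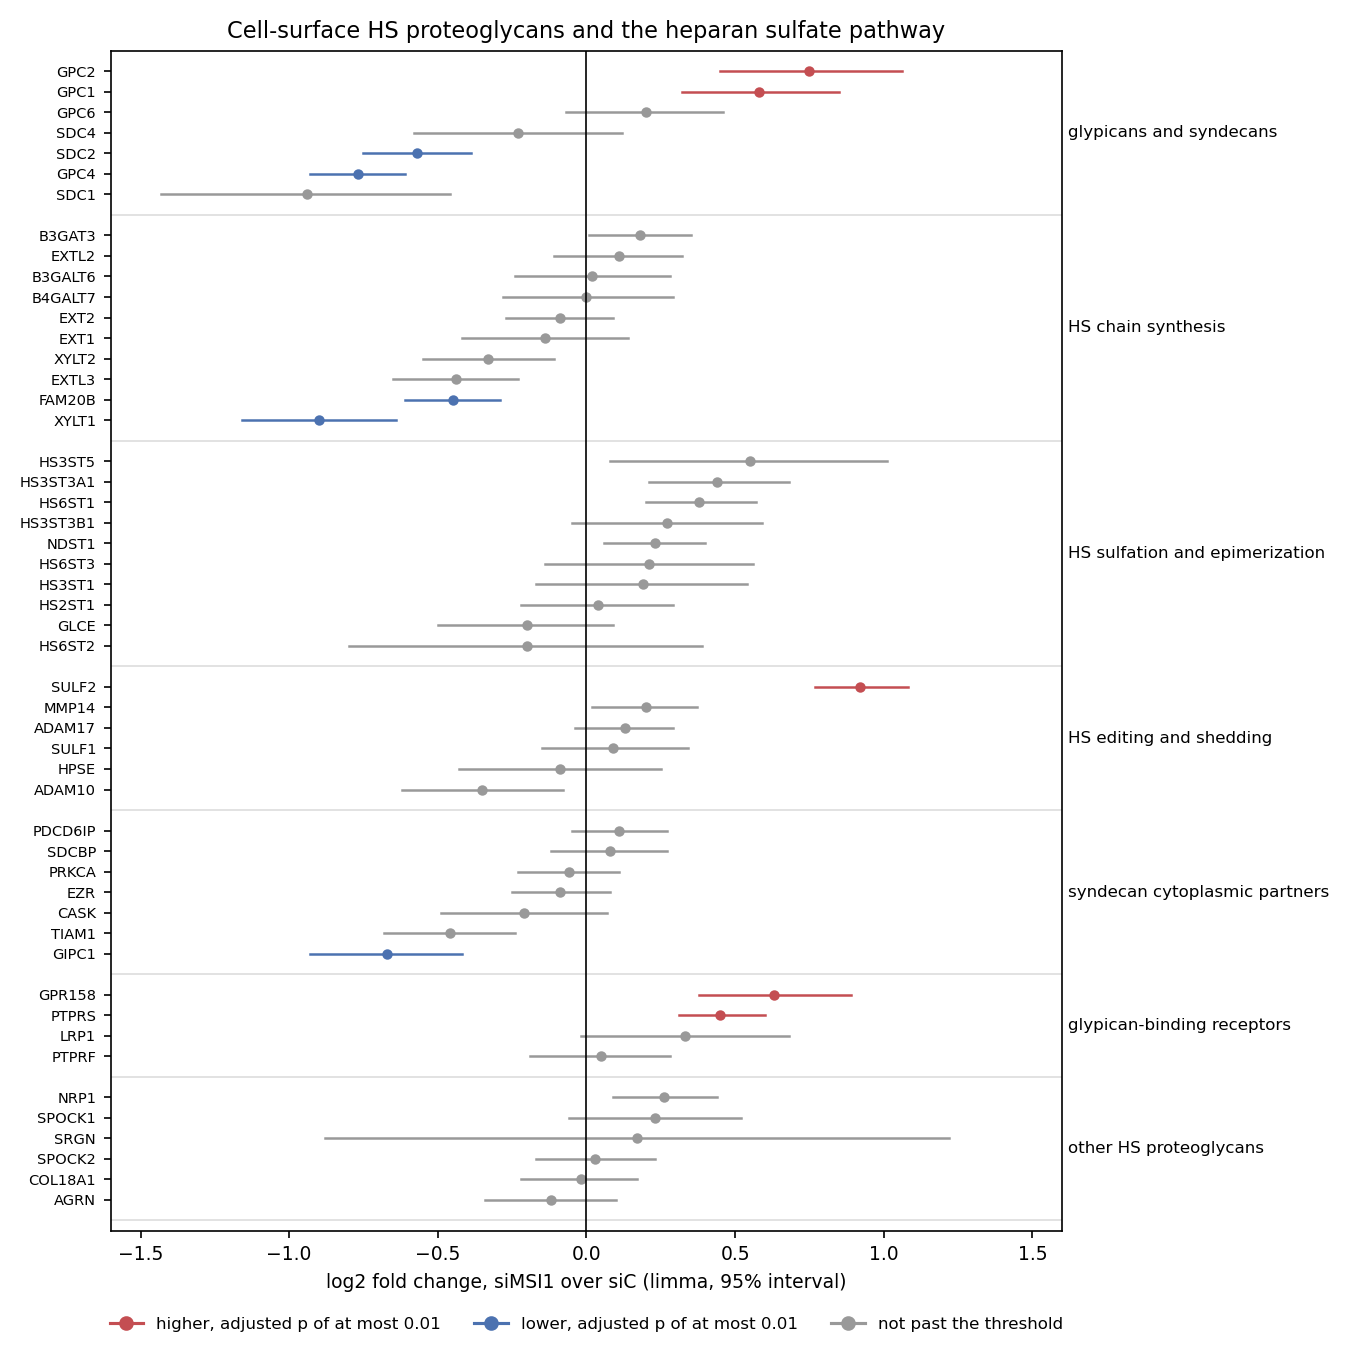
Log2 fold changes of siMSI1 over siC with 95% intervals (limma) for the 7 tested glypicans and syndecans and the 43 tested genes of the HS lists, one gene per line. Red marks genes past the threshold as higher, blue as lower, and grey the rest, and members lie on both sides of 0, from SDC1 at −0.94 to GPC2 at 0.75.

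The study tested whether MSI1 shields the CD44 mRNA from microRNAs through its 3′UTR. It worked mainly with miR-27b-3p and miR-143-3p, which are predicted to target the 3′UTR of CD44. The 3′UTRs of the members were therefore searched for the words that pair with bases 2 to 8 of these microRNAs, on the mRNA strand, using the longest annotated 3′UTR of each gene (GENCODE release 44 on GRCh38). The mature microRNAs (RefSeq, GRCh38.p14) are shown with their seed, bases 2 to 8, in capitals.
hsa-miR-27b-3p: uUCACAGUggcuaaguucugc
hsa-miR-143-3p: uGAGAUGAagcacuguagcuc
The word ACUGUGA, which pairs with the miR-27b-3p seed, occurred once each in GPC4 and SDC2. That is 2 of 10 members, close to the 19.3% of 11281 tested protein-coding genes that held it. The word UCAUCUC, which pairs with the miR-143-3p seed, occurred once each in GPC1, GPC2 and SDC3. That is 3 of 10 members, and 15.8% of the 11281 genes held it. Unlike the 11281 genes, the 10 members include genes that were not tested (GPC3, GPC5 and SDC3). The shares do not allow for 3′UTR length. Of the 5 sites, 4 are shown, without that of SDC2, as mRNA-strand DNA with 10 bases on each side and the paired word in capitals, since they are the matches to the microRNAs the study worked with.
GPC4, miR-27b-3p, chrX:133302513-133302539, minus strand: tttttttccaACTGTGAtctcgccttg
GPC1, miR-143-3p, chr2:240467914-240467940, plus strand: caccctacgcTCATCTCtggaaggggc
GPC2, miR-143-3p, chr7:100169685-100169711, minus strand: gggggggtgcTCATCTCgtgacctctg
SDC3, miR-143-3p, chr1:30872980-30873006, minus strand: ccttacgagcTCATCTCttgttcccct
All 5 are exonic, in the 3′UTR, and each is a 7-mer match. A match is a description of the letters, and use of the sites was not measured in these libraries.

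Musashi proteins bind RNA words with a UAG core. Of these only GUAG was counted, so a 3′UTR without it may hold other words with that core. The word GUAG was absent from the 1786 bases of the GPC1 3′UTR, while 83.1% of the 11281 genes held it at least once. It occurred 2 times in GPC2, 6 times in GPC4, 11 times in GPC6, 8 times in SDC1, 8 times in SDC2, 4 times in SDC4, 2 times in GPC3, 3 times in GPC5 and 6 times in SDC3. Per kilobase of 3′UTR this was 3.21 for GPC2, 2.17 for GPC4, 2.29 for GPC6, 4.06 for SDC1, 3.57 for SDC2, 2.02 for SDC4, 5.28 for GPC3, 3.76 for GPC5 and 1.6 for SDC3, against a median of 2.38 over the 11281 genes. Among the members past the threshold, GPC2 and SDC2 were above that median, and GPC1 and GPC4 were below it. A link between word density and the direction of change was not tested.

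**Figure D4:**
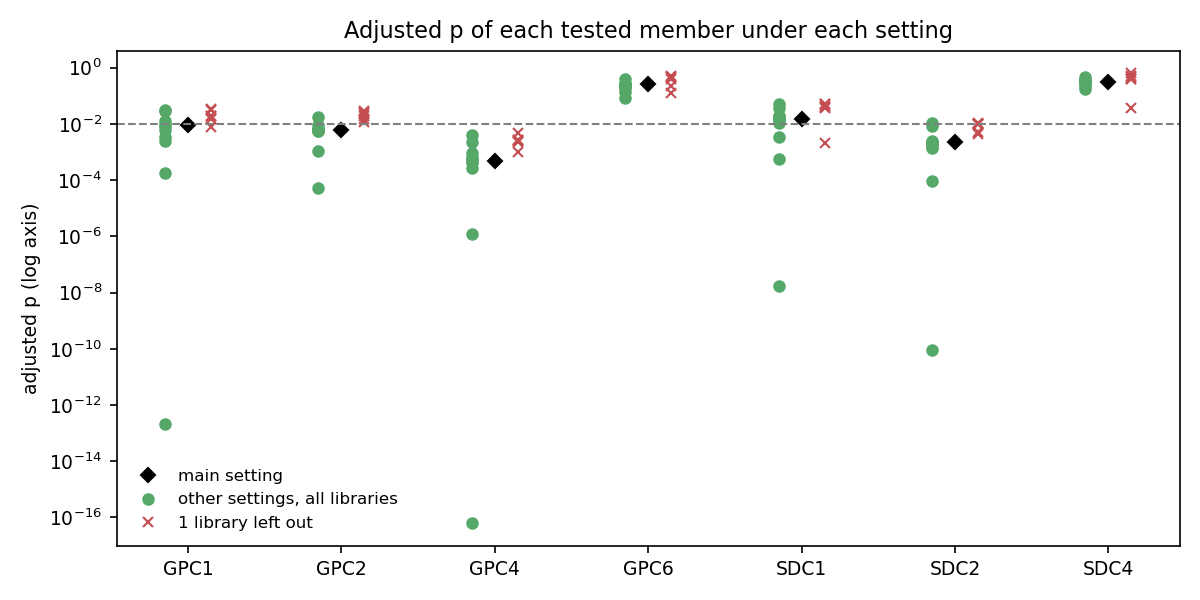
Adjusted p (log axis) of the 7 tested members under the main setting (diamonds), other settings with all libraries (circles) and fits with 1 library left out (crosses). The dashed line is the threshold of 0.01. Only GPC4 stays below it throughout, while GPC6 and SDC4 stay above it.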

How the data were processed

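The authors clipped the reads with Cutadapt 1.14, aligned them to GRCh38 with HiSat2 2.1.0, summarized reads per gene with FeatureCounts 1.5.3 on an Ensembl annotation and deposited 1 table of FPKM values per gene and library, scaled by TMM in edgeR 3.18.1. Libraries were strand-specific, and whether counting used the strand is not stated in the sources used here. Its further columns, the authors' own log2 fold changes, p-values and FDR of siMSI1 over siC, were not used.

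FPKM times gene length gave whole multiples of 1 read for 100% of values above 0 (tolerance 0.001 reads), so the reads behind each value were recovered. A floor of 3 reads is 0.0829 to 0.114 FPKM at a gene length of 2 kb and covers counting error only. limma 3.58.1 in R 4.3.3 (eBayes with trend and robust) fitted log2(FPKM + 0.1) of genes with a mean of at least 0.5 FPKM, a scale that understates the change of low genes, without a replicate block, and the fit was tested on simulated data. The text names all members, the genes of the HS lists past the threshold, the most abundant gene of each list, and NDST, EXT and SULF genes. EXTL3, XYLT2, HS3ST3A1, HS3ST5 and NRP1 were named after their values were seen. The members and lists were chosen with earlier results of these data known. Positions and 3′UTRs come from GENCODE 44, where 98.7% of 58174 gene identifiers were found. Protein sequences were not used here.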

Additional observations from a re-analysis of the deposited data

How the results depend on the processing

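In 17 alternative settings the tested members kept their direction, and GPC4 and MSI1 were past the threshold in each, GPC6 and SDC4 in none. Log2 fold changes with 1 library left out were 0.47 to 0.65 for GPC1, 0.68 to 0.83 for GPC2, −1.18 to −0.78 for SDC1 and −0.62 to −0.52 for SDC2 (adjusted p from limma 0.0076 to 0.034, 0.0118 to 0.0285, 0.0021 to 0.050 and 0.0045 to 0.0106). In these fits 1 to 4 members, 1 to 7 genes of the HS lists and 517 to 1603 of all genes were past the threshold, with fewer samples by construction. With no filter on low values, GPC1 (0.58, adjusted p = 0.030) and GPC2 (0.75, 0.0169) lost their call, which left 2 members, 3 HS genes and 792 of all genes, with more genes tested. Without trend and robust moderation, GPC1 (0.58, 0.0292) and SDC2 (−0.57, 0.0104) lost it, which left 2 members, 2 HS genes and 847 of all genes. With median centring GPC1 lost it (0.60, 0.0129). At a threshold of 0.05, SDC1 passed (−0.94), as did 12 HS genes and 3787 of all genes (25.1%). With voom on recovered reads SDC1 passed (−0.97) and 2855 genes did. The cause of these changes was not tested.

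Deviations of same-numbered libraries from their group means had correlations of −0.0661, 0.0783 and 0.0830 over 15069 genes. With 3 libraries per group these values cannot decide whether same-numbered libraries shared a batch, and no source used here states it. With the replicate block SDC1 passed (−0.94, adjusted p = 0.0035 from limma) and no other member changed its call. Of all genes 2250 passed, against 1655 without the block. With the block and voom, SDC1 was at −0.94 and passed, as did 17 HS genes and 5070 of all genes. GPC5, with 1 read in all libraries together, allowed no comparison at this depth.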

Other observations

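Of the 6 HS pathway genes past the threshold, XYLT1 held 1 ACUGUGA word and FAM20B held 1 UCAUCUC word in the longest annotated 3′UTR. SULF2, PTPRS, GPR158 and GIPC1 held neither. GUAG words per kilobase were 2.31 in XYLT1, 2.26 in FAM20B and 0 in GIPC1, the genes that fell, and 4.14 in SULF2, 2.37 in PTPRS and 2.71 in GPR158, the genes that rose. Other words with a UAG core were not counted. Binding was not measured in these libraries, and a link between the counted words and the direction of change was not tested.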
